A study of Mus musculus with 82 samples.

Results

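The 33 genes described here encode the enzymes that turn cytosolic citrate and acetate into fatty acids and triglycerides, together with the transcription factors and cofactors known to drive them. They were taken by gene symbol, as every probe set annotated to that symbol alone, and 32 of them had a probe set among the 18193 genes measured, with 70 probe sets in all. Acsl1 was not analysed here. Affymetrix expression arrays were run on RNA of embryonic fibroblasts (MEFs) and primary hepatocytes from C57BL/6 mice, to ask which changes in expression after AMPK activators depend on AMPK. Cells with neither catalytic subunit of AMPK, the AMP-activated protein kinase (AMPK α1-/-/α2-/-, called dKO), and control cells (called WT) were exposed for 4 h to 991, to AICAR or to DMSO vehicle. MEFs received 10 µM 991 or 2 mM AICAR, and hepatocytes received 3 µM 991 or 300 µM AICAR, so doses differed between the cell types. The MEF groups were dKO with 991, dKO with AICAR, dKO with vehicle, WT with 991, WT with AICAR and WT with vehicle, with 3 arrays in WT with 991 and 4 in each of the others. The same 6 groups of hepatocytes had 59 arrays from 2 cell preparations per genotype.

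AMPK is a kinase that is switched on when cellular energy falls, and it phosphorylates and inhibits acetyl-CoA carboxylase, the enzyme that commits acetyl-CoA to fatty acid synthesis. The compound 991 binds AMPK directly, whereas AICAR is taken up and phosphorylated to ZMP, a mimic of AMP that other AMP-sensing enzymes can also bind. In liver, the genes of fatty acid synthesis are driven by SREBP-1c, the product of Srebf1, in response to insulin, and by ChREBP, the product of Mlxipl, in response to glucose.

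Values are log2 intensities, so a difference of 1 is a doubling of the signal. A gene is called here when its adjusted p from limma, corrected over all 18193 genes by the Benjamini-Hochberg method, is under 0.05. The MEF arrays are technical replicates per the labels, and the MEFs carry no preparation number, so the p-values of MEF comparisons cover the spread between arrays alone, and the difference between genotypes cannot be told apart from a difference between the cultures. Hepatocyte values are means over the arrays of a preparation, with n = 2 preparations in every group. In 9 of 9 measured hepatocyte marker genes the hepatocyte arrays lay above the median gene, with a summed log2 intensity of 16.83 to 16.87 in WT cells with vehicle. Of 10 Kupffer cell markers, 9 also lay above the median gene in hepatocytes with vehicle of each genotype. They summed to 11.56 to 11.90 in dKO and 12.27 to 12.77 in WT, with 0 of 10 called between genotypes, and their part was not tested. The 9 measured fibroblast markers summed to 12.61 to 12.70 in dKO MEFs with vehicle, against 14.78 to 14.83 in WT MEFs with vehicle. Adipocyte markers were low in MEFs, with 0 of 8 above the median gene in dKO cells with vehicle and 1 of 8 in WT cells with vehicle.

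The targeted gene Prkaa1 had log2 intensities of 8.36, 8.27, 8.17 and 8.25 in dKO MEFs with vehicle, against 8.45, 8.45, 8.17 and 8.34 in WT MEFs with vehicle, and these ranges overlapped. Prkaa2 had 6.00, 5.89, 5.89 and 5.76 in dKO MEFs with vehicle, against 6.33, 6.29, 6.15 and 6.06 in WT MEFs with vehicle, and was lower by limma (log2 difference -0.32, adjusted p = 0.00116). In hepatocytes with vehicle, Prkaa1 had 4.46 and 4.58 in dKO preparations, against 5.54 and 5.72 in WT preparations, a log2 difference of -1.11 that did not pass the test (adjusted p = 0.194). Prkaa2 had 9.56 and 9.63 in dKO hepatocytes with vehicle, against 9.71 and 9.68 in WT hepatocytes with vehicle. The sources used here do not place these probe sets relative to the deleted parts of the genes, so their levels do not check the genotype labels.

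Levels of the 32 genes spanned the range of the arrays in both cell types. In MEFs 8 of them lay below the median gene and 8 in the top 10%, and in hepatocytes 4 lay below the median gene and 11 in the top 10%. Scd2, a stearoyl-CoA desaturase, had group means between 12.84 and 13.03 in MEFs (percentile 98.9 of all genes), whereas Scd1, its relative in liver, had group means between 13.50 and 13.78 in hepatocytes (percentile 99.6). Scd2 was at percentile 21.8 in hepatocytes and Scd1 at percentile 90.5 in MEFs. Mlxipl was at percentile 92.4 in hepatocytes and at percentile 19.6 in MEFs, and Mogat1, a monoacylglycerol acyltransferase, was near the bottom in both (percentiles 22.6 and 14.0). Percentiles were taken within a cell type, because the cell types were not tested against each other.

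Promoter sequences were available for 26 of the 32 measured genes, as 35 windows running from 250 bases before to 50 bases after an annotated start site (RefSeq, GRCm38.p6, strand of the gene). The windows of 5 genes are shown: Acss2, Aacs, Lpin1 and Elovl1, which moved with AICAR in MEFs of both genotypes, and Fasn. In MEFs the responses of Fasn and Lpin1 to both compounds differed between genotypes, as did those of Acss2 and Aacs to 991. Acss2 is at chr2:155517793-155518092 (+), Aacs at chr5:125475623-125475922 (+), Lpin1 at chr12:16610917-16611216 (-), Fasn at chr11:120824498-120824797 (-) and Elovl1, the first of its 2 windows, at chr4:118427843-118428142 (+). Capitals mark matches on either strand to the sterol regulatory element core TCACNCCAC, the E-box CACGTG, the NF-Y box CCAAT or the GC box GGGCGG, and adjoining or overlapping matches run together.
Acss2: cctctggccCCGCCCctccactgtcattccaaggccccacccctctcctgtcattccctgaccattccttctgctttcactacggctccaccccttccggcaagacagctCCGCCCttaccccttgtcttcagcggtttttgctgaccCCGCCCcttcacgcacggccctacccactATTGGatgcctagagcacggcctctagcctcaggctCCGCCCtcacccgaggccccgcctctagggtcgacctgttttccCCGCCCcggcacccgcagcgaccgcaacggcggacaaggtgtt
Aacs: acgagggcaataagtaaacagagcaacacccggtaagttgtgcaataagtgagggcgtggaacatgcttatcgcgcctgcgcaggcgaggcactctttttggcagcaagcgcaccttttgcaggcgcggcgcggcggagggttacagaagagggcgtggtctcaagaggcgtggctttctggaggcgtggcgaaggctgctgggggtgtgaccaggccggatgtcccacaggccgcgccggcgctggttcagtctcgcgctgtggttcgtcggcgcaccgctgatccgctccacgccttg
Lpin1: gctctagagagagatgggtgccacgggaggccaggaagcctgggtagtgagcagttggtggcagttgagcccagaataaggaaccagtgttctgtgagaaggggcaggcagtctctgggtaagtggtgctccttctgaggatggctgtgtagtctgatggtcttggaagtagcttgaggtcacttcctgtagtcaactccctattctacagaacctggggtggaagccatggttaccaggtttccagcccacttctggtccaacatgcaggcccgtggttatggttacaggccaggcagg
Fasn: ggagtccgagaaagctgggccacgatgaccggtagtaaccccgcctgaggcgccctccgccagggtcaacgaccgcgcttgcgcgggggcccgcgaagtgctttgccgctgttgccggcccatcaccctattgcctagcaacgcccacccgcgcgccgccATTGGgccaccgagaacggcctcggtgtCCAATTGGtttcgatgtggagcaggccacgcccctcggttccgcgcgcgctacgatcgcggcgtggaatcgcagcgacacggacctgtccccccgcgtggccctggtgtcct
Elovl1: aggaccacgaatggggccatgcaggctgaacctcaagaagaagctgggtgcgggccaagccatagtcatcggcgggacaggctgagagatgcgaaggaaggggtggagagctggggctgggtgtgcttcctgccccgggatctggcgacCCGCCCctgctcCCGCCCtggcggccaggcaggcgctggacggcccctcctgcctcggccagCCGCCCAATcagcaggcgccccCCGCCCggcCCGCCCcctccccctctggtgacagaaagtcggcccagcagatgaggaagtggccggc
The Acss2 window held 5 GC boxes and 1 NF-Y box, the Fasn window 3 NF-Y boxes, and the Elovl1 window 5 GC boxes and 1 NF-Y box. The windows shown for Aacs and Lpin1 held none of the 4 motifs. Over the 35 windows, 54.3% held an NF-Y box, against 37.4% of 32851 mouse promoter windows, and 51.4% held a GC box, against 35.7%. An E-box was found in 17.1%, against 7.2%, and the sterol regulatory element core in 2.9%, the Mlxipl window, against 1.2%. These matches describe the letters in the windows and were not tested.

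In WT MEFs, 991 raised genes at most steps of the pathway. Of the 32 genes, 15 rose and 3 fell with 991 in WT MEFs, and 14 were not called, while 19.7% of all genes were called (14% higher, 5.65% lower). The median log2 difference was 0.12 over the 32 genes and 0.00 over all genes. Brighter genes leaned upward more widely. With the 9097 genes at or above the median level fitted alone, 2699 were called higher and 408 lower, with a median of 0.07. Of the 32 genes, 24 were in that set, and 14 rose and 0 fell. In dKO MEFs the same dose changed 1 of the 32 genes, where 3.46% of all genes were called (1.88% higher, 1.58% lower), and the median was 0.03. In the test of the difference between these effects (effect in WT minus effect in dKO), 8 of the 32 genes were called. All had the larger value in WT. Of all genes, 5.28% were called (4.37% higher in WT, 0.912% lower). Among the 9097 genes at or above the median level, 956 were higher in WT and 123 lower, with a median of 0.06. Of the 24 in that set, 7 were higher in WT and 0 lower. The WT count rests partly on scaling: with quantile normalization it was 9 rises and 0 falls, beside 1228 rises and 1023 falls over all genes. The interaction count was then 5, beside 757 of all genes. The WT calls lost were those of Slc25a1, Acly, Acaca, Elovl1, Gpam, Lpin3, Dgat1, Mlxipl and Thrsp.

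AICAR moved the genes in both directions in MEFs of both genotypes. In dKO MEFs 10 of the 32 genes rose and 9 fell, beside 40.2% of all genes called (20.4% higher, 19.8% lower), and in WT MEFs 11 rose and 3 fell, beside 35% of all genes called (19.6% higher, 15.5% lower). With quantile normalization these splits were 7 rises and 11 falls in dKO MEFs and 10 rises and 6 falls in WT MEFs. Over all genes they were then 3925 rises and 3400 falls in dKO MEFs and 3361 rises and 2896 falls in WT MEFs. With the 9097 genes at or above the median level fitted alone, 6048 were called in dKO MEFs and 5532 in WT MEFs. Of the 32 genes, 24 were in that set, and 17 were called in dKO MEFs and 13 in WT MEFs. The interaction was called for 7 of the 32 genes, 6 of them with the higher value in WT, beside 12.1% of all genes (7.93% higher in WT, 4.18% lower). The comparisons with 991 and with AICAR share the vehicle arrays of each genotype.

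**Figure D1:**
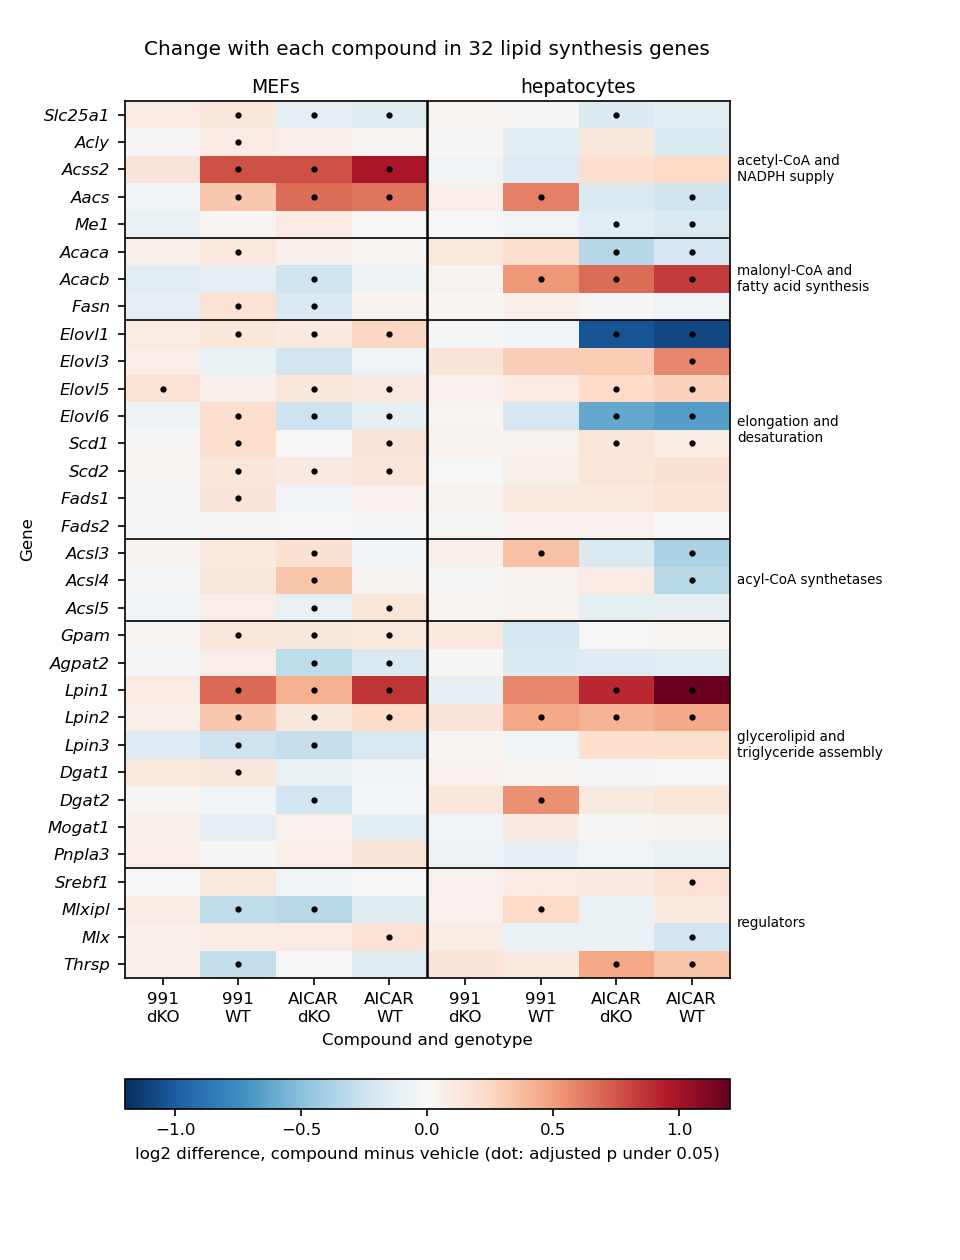
Log2 difference, compound minus vehicle, for the 32 measured genes (rows, grouped by role) in each cell type, compound and genotype (columns), with a dot where the adjusted p is under 0.05. Acss2, Aacs, Lpin1 and Lpin2 are red in WT MEFs with either compound, and Elovl1 and Elovl6 are blue in hepatocytes of both genotypes with AICAR.

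Among the genes that supply acetyl-CoA and NADPH, 4 of 5 rose with 991 in WT MEFs. Acss2, which makes acetyl-CoA from acetate, had log2 intensities of 7.26, 7.54, 7.65 and 7.58 in dKO MEFs with 991, against 7.33, 7.41, 7.28 and 7.40 in dKO MEFs with vehicle. In WT MEFs it had 7.86, 7.81 and 7.49 with 991, against 7.08, 6.80, 6.96 and 7.0 with vehicle. The arrays overlapped in dKO cells and not in WT cells, and the interaction was 0.61 ± 0.12 (SE, adjusted p = 0.00176). AICAR raised Acss2 in both genotypes, with 8.20, 8.19, 8.15 and 7.94 in dKO MEFs and 8.03, 7.94, 7.92 and 7.88 in WT MEFs. The log2 difference was 0.77 ± 0.080 in dKO MEFs (adjusted p = 1.89e-09) and 0.98 ± 0.080 in WT MEFs (adjusted p = 1.65e-11). Of its 3 probe sets, 2 rose with 991 in WT MEFs (0.76 and 0.75). The other, dim in MEFs (mean log2 intensity 5.22), did not pass the test (-0.14, adjusted p = 0.613). When the 3 were averaged the interaction was 0.37 (adjusted p = 0.0561).

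Aacs, which activates acetoacetate for cytosolic lipid synthesis, followed a similar course. It had 9.51, 9.41, 9.64 and 9.64 in dKO MEFs with 991, against 9.60, 9.62, 9.56 and 9.55 in dKO MEFs with vehicle, and 9.92, 9.86 and 9.86 in WT MEFs with 991, against 9.51, 9.65, 9.58 and 9.49 in WT MEFs with vehicle. Only the WT arrays separated, with a log2 difference of -0.03 ± 0.048 in dKO cells (adjusted p = 0.819) and 0.33 ± 0.052 in WT cells (adjusted p = 5.3e-05). The interaction was 0.36 ± 0.071 (adjusted p = 0.00216), and 0.15 (adjusted p = 0.128) when its 3 probe sets were averaged. Of the 3, the 2 brighter rose with 991 in WT MEFs (0.33 and 0.27). The last was dim (mean log2 intensity 5.67 in MEFs) and was not called (-0.22, adjusted p = 0.141). With AICAR, Aacs had 10.34, 10.29, 10.22 and 10.18 in dKO MEFs and 10.11, 10.32, 10.19 and 10.16 in WT MEFs, above every vehicle array of the same genotype. The AICAR differences were 0.67 ± 0.048 in dKO MEFs (adjusted p = 4.41e-13) and 0.64 ± 0.048 in WT MEFs (adjusted p = 2.53e-12). Slc25a1, the mitochondrial citrate carrier, rose by 0.14 with 991 in WT MEFs (adjusted p = 0.00513) and fell with AICAR in dKO MEFs (-0.11, adjusted p = 0.00475) and in WT MEFs (-0.15, adjusted p = 0.000305). Acly, which cleaves citrate to acetyl-CoA, rose by 0.10 with 991 in WT MEFs (adjusted p = 0.0287). Me1, malic enzyme, a source of NADPH, was not called with either compound in MEFs.

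**Figure D2:**
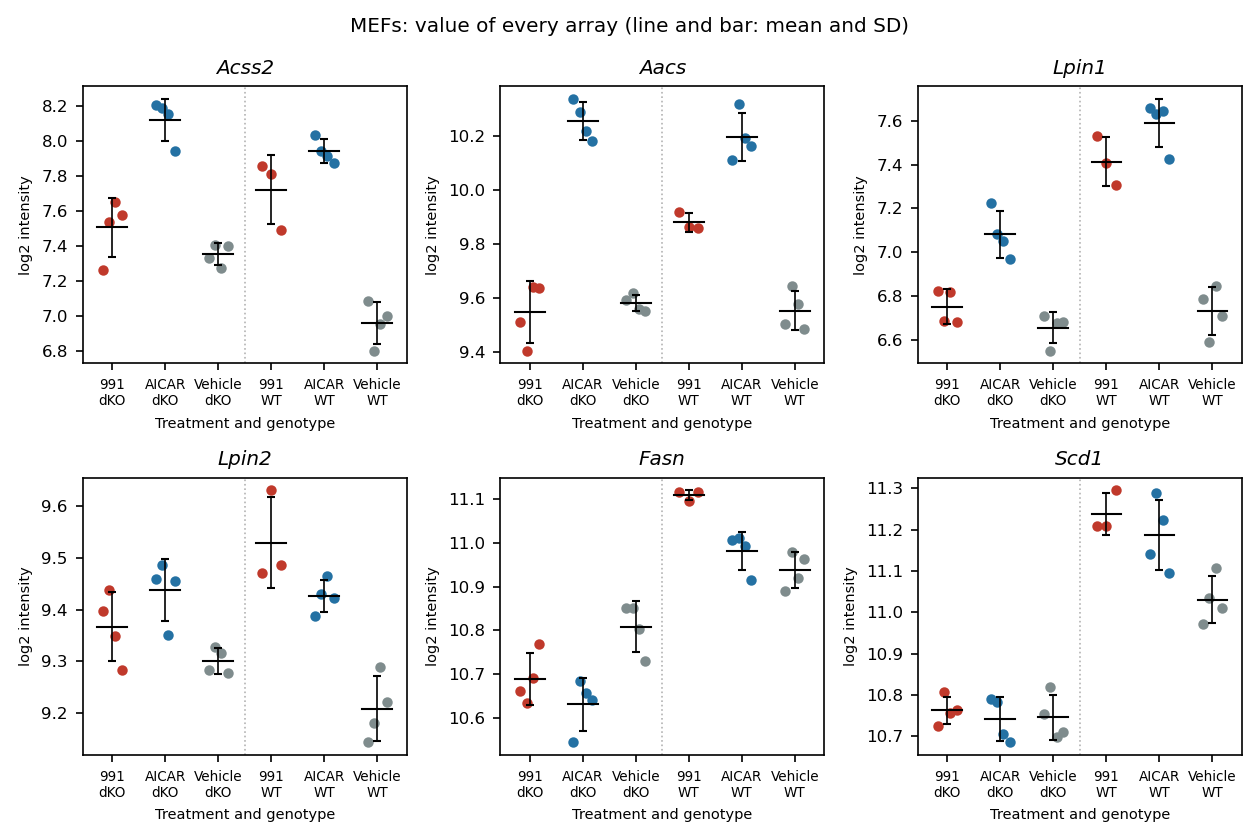
Log2 intensity (y axis) of 6 genes on every MEF array by treatment and genotype (x axis), with the group mean and SD. Lpin1 arrays of WT cells with 991 lie between 7.30 and 7.53, above the dKO arrays with 991 at 6.68 to 6.83, and Fasn in dKO cells is lower with AICAR than with vehicle.

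Fatty acid synthase, encoded by Fasn, differed between the genotypes in its response to both compounds. In dKO MEFs it had 10.66, 10.63, 10.69 and 10.77 with 991 and 10.54, 10.68, 10.66 and 10.64 with AICAR, against 10.85, 10.85, 10.80 and 10.73 with vehicle. In WT MEFs it had 11.12, 11.10 and 11.12 with 991 and 11.01, 11.01, 10.99 and 10.92 with AICAR, against 10.89, 10.98, 10.92 and 10.96 with vehicle. All 3 WT arrays with 991 were above every WT vehicle array, and all 4 dKO arrays with AICAR were below every dKO vehicle array. For AICAR the differences were -0.18 ± 0.035 in dKO cells (adjusted p = 9.34e-05) and 0.04 ± 0.035 in WT cells (adjusted p = 0.377), with an interaction of 0.22 ± 0.049 (adjusted p = 0.00246). For 991 the difference in dKO cells was -0.12 ± 0.035 (adjusted p = 0.0501) and that in WT cells was 0.17 ± 0.038 (adjusted p = 0.00198).

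Of the acetyl-CoA carboxylase genes, Acaca was called with 991 and Acacb with AICAR. Acaca, the cytosolic form, had 9.76, 9.79, 9.81 and 9.86 in dKO MEFs with 991 and 10.16, 10.21 and 10.16 in WT MEFs with 991. With vehicle it had 9.75, 9.81, 9.70 and 9.68 in dKO MEFs and 9.95, 10.10, 10.09 and 10.06 in WT MEFs. It rose with 991 in WT cells by 0.13 ± 0.040 (adjusted p = 0.0238), and its 991 interaction of 0.06 was not called (adjusted p = 0.541). Acacb, the form at the mitochondrial surface whose malonyl-CoA restrains fatty acid entry, was dim in MEFs (percentile 31.4). It fell with AICAR in dKO cells by 0.24 ± 0.098 (adjusted p = 0.0489), with 5.63, 5.59, 5.51 and 5.74 with AICAR, against 5.96, 5.88, 5.81 and 5.78 with vehicle. This call was lost with quantile normalization (-0.15, adjusted p = 0.198), with the mean of its probe sets (-0.12, adjusted p = 0.123) and with the replicate block (adjusted p = 0.0587). The AICAR interaction of Acacb was 0.18 ± 0.14 (adjusted p = 0.51).

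Among the 8 elongases and desaturases, 5 rose with 991 in WT MEFs and 1 in dKO MEFs. Elovl6, which extends palmitate, had 10.73, 10.70, 10.70 and 10.77 in dKO MEFs with 991 and 10.54, 10.57, 10.51 and 10.52 with AICAR, against 10.77, 10.84, 10.75 and 10.79 with vehicle. In WT MEFs it had 10.73, 10.74 and 10.78 with 991 and 10.44, 10.48, 10.39 and 10.38 with AICAR, against 10.52, 10.60, 10.55 and 10.51 with vehicle. It thus lay lower with AICAR in both genotypes, with no overlap, and higher with 991 in WT cells. The AICAR differences were -0.25 ± 0.030 in dKO cells (adjusted p = 3.39e-08) and -0.12 ± 0.030 in WT cells (adjusted p = 0.00208). The interactions were 0.27 ± 0.045 for 991 (adjusted p = 0.000359) and 0.13 ± 0.043 for AICAR (adjusted p = 0.0418). The call of that AICAR interaction was lost in 10 of 27 alternatives, each of them leaving out 1 array. Scd1, which makes oleate from stearate, rose in WT MEFs with 991 (0.21 ± 0.041, adjusted p = 0.000733) and with AICAR (0.16 ± 0.038, adjusted p = 0.00137). In dKO MEFs its differences were 0.02 with 991 (adjusted p = 0.885) and 0.00 with AICAR (adjusted p = 0.953). Fads1, a desaturase of polyunsaturated fatty acids, rose by 0.16 with 991 in WT MEFs (adjusted p = 0.00312), with an interaction of 0.17 (adjusted p = 0.0441) that was not called with quantile normalization (0.12, adjusted p = 0.114).

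Elovl1, an elongase of saturated very long chains, rose with AICAR in MEFs of both genotypes. It had 11.14, 11.23, 11.14 and 11.20 in dKO MEFs with AICAR, against 11.08, 11.03, 11.08 and 11.05 with vehicle, and 11.47, 11.49, 11.47 and 11.44 in WT MEFs with AICAR, against 11.12, 11.25, 11.25 and 11.24 with vehicle. The groups did not overlap in either genotype, and the differences were 0.12 ± 0.033 in dKO cells (adjusted p = 0.0048) and 0.25 ± 0.033 in WT cells (adjusted p = 3.01e-07). The dKO call of Elovl1 was lost with quantile normalization (0.05, adjusted p = 0.226). Elovl5, an elongase of polyunsaturated fatty acids, was the single gene of the 32 called with 991 in dKO MEFs, with 11.92, 11.94, 11.91 and 11.88 with 991, against 11.69, 11.78, 11.75 and 11.76 with vehicle. No array overlapped, and the difference was 0.17 ± 0.031 (adjusted p = 0.00172). The other Elovl5 probe set, nearly as bright in MEFs (mean 11.64 against 11.96), did not show this rise (0.025 ± 0.027, adjusted p = 0.764). The WT difference of the brighter Elovl5 probe set with 991 was 0.06 ± 0.034 (adjusted p = 0.173). Scd2 rose by 0.11 with AICAR in dKO MEFs (adjusted p = 0.00937), and in WT MEFs by 0.14 with 991 (adjusted p = 0.00486) and by 0.15 with AICAR (adjusted p = 0.000563). Elovl3 and Fads2 were not called with either compound in MEFs.

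The acyl-CoA synthetases, which activate fatty acids, were not called with 991 in MEFs of either genotype by their brightest probe sets. Among the other probe sets, 1 of Acsl3 (0.25, adjusted p = 0.0258) and 2 of Acsl4 (0.15, adjusted p = 0.0243, and 0.35, adjusted p = 0.00165) were called higher with 991 in WT MEFs. With AICAR, Acsl5 had 11.65, 11.62, 11.61 and 11.68 in dKO MEFs with AICAR, against 11.77, 11.75, 11.72 and 11.66 with vehicle, and 10.90, 10.97, 11.02 and 10.96 in WT MEFs with AICAR, against 10.76, 10.87, 10.79 and 10.84 with vehicle. It fell by 0.09 in dKO cells, with overlap, and rose by 0.15 in WT cells, without overlap, and the interaction was 0.24 ± 0.045 (adjusted p = 0.000447). Acsl3 had 10.36, 10.36, 10.35 and 10.25 in dKO MEFs with AICAR, against 10.21, 10.19, 10.11 and 10.07 with vehicle, and 9.90, 9.88, 9.93 and 9.91 in WT MEFs with AICAR, against 9.95, 9.94, 9.89 and 9.98 with vehicle. Among the genes with a called AICAR interaction, it was the only 1 with the lower value in WT (-0.22 ± 0.064, adjusted p = 0.022). That interaction was not called with the mean of its probe sets (-0.22, adjusted p = 0.101). Acsl4, which prefers arachidonate, had 10.05, 9.80, 9.91 and 9.67 in dKO MEFs with AICAR, against 9.55, 9.48, 9.45 and 9.60 with vehicle, a rise of 0.34 ± 0.081 (adjusted p = 0.00106). The WT difference of that Acsl4 probe set was 0.04 ± 0.081 (adjusted p = 0.752), and its interaction was not called (adjusted p = 0.0993). The other Acsl4 probe sets rose with AICAR by 0.19 and 0.70 in dKO MEFs and by 0.20 and 0.67 in WT MEFs.

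Glycerolipid assembly was led by the lipins, the phosphatidate phosphatases that make diacylglycerol. Lpin1 had 6.83, 6.69, 6.82 and 6.68 in dKO MEFs with 991 and 7.22, 7.08, 7.05 and 6.97 with AICAR, against 6.71, 6.55, 6.68 and 6.68 with vehicle. In WT MEFs it had 7.53, 7.41 and 7.30 with 991 and 7.66, 7.63, 7.65 and 7.43 with AICAR, against 6.79, 6.59, 6.85 and 6.71 with vehicle. Only the dKO arrays with 991 overlapped vehicle. The 991 difference was 0.10 ± 0.072 in dKO cells (adjusted p = 0.558) and 0.68 ± 0.078 in WT cells (adjusted p = 2.57e-07), with an interaction of 0.58 ± 0.11 (adjusted p = 0.000863). With AICAR Lpin1 rose in both genotypes, by 0.43 ± 0.072 in dKO cells (adjusted p = 1.03e-05) and by 0.86 ± 0.072 in WT cells (adjusted p = 2.82e-11), and the interaction was 0.43 ± 0.10 (adjusted p = 0.00414). Its other probe set gave 0.12 in dKO cells (adjusted p = 0.248) and 1.05 in WT cells (adjusted p = 8.31e-12) with AICAR.

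Lpin2 had 9.40, 9.44, 9.35 and 9.28 in dKO MEFs with 991, against 9.28, 9.33, 9.32 and 9.28 with vehicle, and 9.47, 9.63 and 9.49 in WT MEFs with 991, against 9.14, 9.18, 9.29 and 9.22 with vehicle. The WT groups did not overlap, the difference was 0.32 ± 0.046 (adjusted p = 1.05e-05), and the interaction was 0.26 ± 0.062 (adjusted p = 0.0134), which was not called with quantile normalization (0.18, adjusted p = 0.133). Lpin3, dim in MEFs (percentile 17.1), fell with 991 in WT MEFs by 0.25 (adjusted p = 0.0265) and with AICAR in dKO MEFs by 0.28 (adjusted p = 0.00227). Agpat2, which makes phosphatidate, had 9.51, 9.68, 9.65 and 9.58 in dKO MEFs with AICAR, against 9.87, 9.91, 9.97 and 9.88 with vehicle, and all 4 arrays were below vehicle (difference -0.30 ± 0.052, adjusted p = 1.4e-05). In WT MEFs Agpat2 fell by 0.17 with AICAR (adjusted p = 0.00844), with overlapping arrays. Gpam, which carries out the initial acylation of glycerol phosphate, rose by 0.14 with AICAR in dKO MEFs (adjusted p = 0.00857) and by 0.12 in WT MEFs (adjusted p = 0.029). The WT call of Gpam was lost with quantile normalization (0.08, adjusted p = 0.0835). With the mean of its probe sets both calls were lost (0.11, adjusted p = 0.0524 in dKO, and 0.06, adjusted p = 0.321 in WT). Dgat1 and Dgat2 both catalyse the final step to triglyceride. Dgat1 rose by 0.14 with 991 in WT MEFs (adjusted p = 0.0181). Dgat2 fell by 0.23 with AICAR in dKO MEFs (adjusted p = 0.00025), with an interaction of 0.21 (adjusted p = 0.0361). That interaction was not called with quantile normalization (0.21, adjusted p = 0.0547) or with the mean of its probe sets (0.16, adjusted p = 0.123).

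Of the transcription factors, Mlxipl and Mlx were called in MEFs. Srebf1 was not called with either compound in either genotype. With 991 it had 10.21, 10.33, 10.39 and 10.36 in dKO MEFs, against 10.26, 10.44, 10.35 and 10.24 with vehicle, and 10.55, 10.62 and 10.50 in WT MEFs, against 10.37, 10.47, 10.47 and 10.40 with vehicle. The WT arrays did not overlap, and the difference was 0.13 ± 0.049 (adjusted p = 0.0678), beside 0.00 ± 0.045 in dKO cells (adjusted p = 0.993). With 991 in WT MEFs, Mlxipl had 4.30, 4.66 and 4.78, against 5.09, 4.71, 4.96 and 4.79 with vehicle, and it fell by 0.31 ± 0.11 (adjusted p = 0.0395) although the arrays overlapped. Mlxipl was dim and fell with AICAR in dKO MEFs, with 4.71, 4.48, 4.44 and 4.77, against 4.84, 4.97, 5.03 and 4.89 with vehicle (difference -0.33 ± 0.098, adjusted p = 0.00636). Thrsp, a cofactor of lipogenesis, had 6.28, 6.58 and 6.49 in WT MEFs with 991, against 6.72, 6.58, 6.78 and 6.84 with vehicle. It fell by 0.28 with 991 in WT MEFs (adjusted p = 0.0244), and this call was lost with quantile normalization (-0.24, adjusted p = 0.0549). The other Thrsp probe sets were not called there (-0.02, adjusted p = 0.903, and -0.13, adjusted p = 0.467). The call was also lost with the mean of its probe sets (-0.145, adjusted p = 0.203). Mlx, the partner of ChREBP, rose by 0.17 with AICAR in WT MEFs (adjusted p = 0.00128).

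Of 37 measured genes from a wider list of the pathway (further supply and elongation enzymes, acyltransferases, regulators), 8 rose and 2 fell with 991 in WT MEFs and 0 were called in dKO MEFs, beside 19.7% of all genes called in WT and 3.46% in dKO. Insig1, which retains SREBPs in the endoplasmic reticulum and is itself an SREBP target, rose by 0.43 with 991 in WT MEFs (adjusted p = 5.73e-06), with an interaction of 0.45 (adjusted p = 0.000756). With AICAR, Insig1 fell by 0.43 in dKO MEFs (adjusted p = 8.1e-08), with an interaction of 0.52 (adjusted p = 1.99e-05). Ppargc1b, a coactivator of SREBPs, rose by 0.35 with 991 in WT MEFs (adjusted p = 0.00125) and fell with AICAR by 0.83 in dKO MEFs (adjusted p = 1.17e-11) and by 0.22 in WT MEFs (adjusted p = 0.0102). Mid1ip1, a relative of Thrsp that promotes acetyl-CoA carboxylase polymerisation, rose by 0.26 with 991 in WT MEFs (adjusted p = 0.000139) and fell by 0.45 with AICAR in dKO MEFs (adjusted p = 1.04e-10). With AICAR, 9 of the 37 rose and 6 fell in dKO MEFs, and 5 rose and 6 fell in WT MEFs, which is near the 40.2% of all genes called in dKO and the 35% called in WT.

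The vehicle-treated MEFs differed between genotypes in 18 of the 32 genes, 13 higher and 5 lower in dKO, beside 47.3% of all genes called (28% higher, 19.2% lower). With quantile normalization 13 were higher and 9 lower, beside 4586 higher and 4567 lower over all genes. Among the 9097 genes at or above the median level, fitted alone, 6759 were called, and so were 20 of the 24 in that set. All 3 acyl-CoA synthetases were higher in dKO MEFs. Acsl5 had 11.77, 11.75, 11.72 and 11.66 in dKO MEFs, against 10.76, 10.87, 10.79 and 10.84 in WT MEFs, a difference of 0.91 ± 0.032 (adjusted p = 1.97e-21) with no overlap. Me1 had 11.13, 11.18, 11.27 and 11.20 in dKO MEFs, against 10.54, 10.58, 10.69 and 10.53 in WT MEFs (0.61 ± 0.045, adjusted p = 3.59e-13). Dgat2 had 9.10, 9.03, 9.12 and 9.03 in dKO MEFs, against 8.41, 8.54, 8.56 and 8.48 in WT MEFs (0.57 ± 0.048, adjusted p = 7.64e-12). Both were separated in every array.

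Other genes of fatty acid synthesis went in opposite directions between the MEF genotypes. Acly had 12.25, 12.25, 12.20 and 12.19 in dKO MEFs, against 11.84, 11.95, 11.82 and 11.86 in WT MEFs (0.35 ± 0.029, adjusted p = 5.98e-12), and Acacb was higher by 0.38 ± 0.098 (adjusted p = 0.00131). Acaca was lower in dKO MEFs by 0.31 ± 0.037 on the log2 scale (-0.31, adjusted p = 1.09e-08), with no overlap between the vehicle arrays given above. Fasn was also lower (-0.13 ± 0.035, adjusted p = 0.00217), as were Scd1 (-0.29 ± 0.038, adjusted p = 1.22e-07), Elovl5 (-0.28 ± 0.031, adjusted p = 3.06e-09) and Elovl1 (-0.15 ± 0.033, adjusted p = 0.000208). Acss2 was higher in dKO MEFs by 0.39 ± 0.080 (adjusted p = 0.000108), but its 3 probe sets disagreed, with 2 higher (0.39 and 0.55) and 1 lower (-0.42, adjusted p = 0.0229). Acsl3 was higher by 0.20 ± 0.045 (adjusted p = 0.000302), with 2 probe sets higher and 1 lower (-0.40, adjusted p = 0.00095), and its mean over probe sets was 0.02 (adjusted p = 0.832). Srebf1 (-0.10 ± 0.045, adjusted p = 0.0559) and Mlxipl (0.04 ± 0.098, adjusted p = 0.763) were not called. Of the wider list of 37, 14 genes were higher and 11 lower, beside the 47.3% of all genes given above, led by Acsl6 (2.92), Gpat3 (1.80) and Ppargc1b (1.17). In the same comparison 8 of 9 fibroblast markers and 5 of 5 measured cholangiocyte markers were lower in dKO MEFs, and their part in these differences was not tested.

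**Figure D3:**
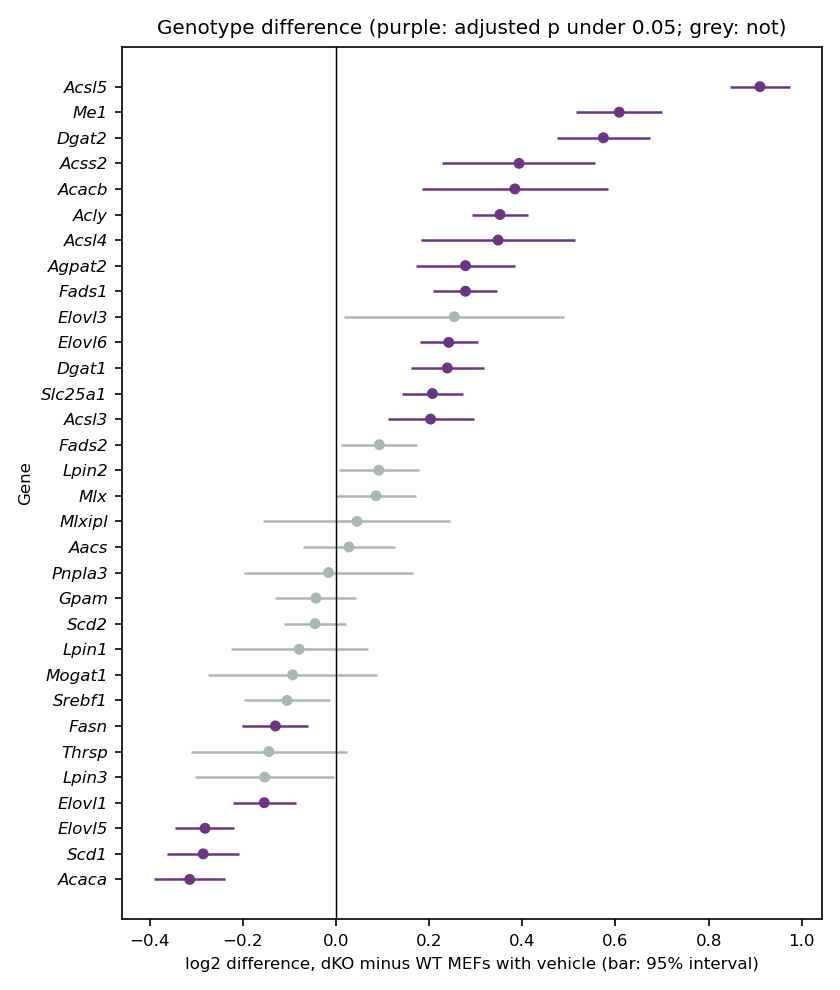
Log2 difference, dKO minus WT MEFs with vehicle (x axis), with its 95% confidence interval for each of the 32 genes (y axis), purple where the adjusted p is under 0.05. Acsl5, Me1 and Dgat2 lie farthest to the right, and Acaca, Scd1 and Elovl5 farthest to the left.

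In hepatocytes 991 raised Aacs and Dgat2 in WT cells, and the other calls there were lost when a preparation was left out. In dKO hepatocytes 0 of the 32 genes were called, beside 0.0055% of all genes, and 3 of the 32 and 819 of all genes had an unadjusted p under 0.05. In WT hepatocytes 6 rose and 0 fell, beside 6.07% of all genes called (3.72% higher, 2.36% lower), and the median log2 difference was 0.06 over the 32 genes and 0.03 over all genes. The interaction was called for 1 of the 32, Aacs, beside 0.412% of all genes (0.33% higher in WT, 0.0824% lower). Aacs and Dgat2 stayed called in WT when either WT preparation was left out. Acacb, Acsl3 and Mlxipl lost their calls when either WT preparation was left out, and Lpin2 without WT preparation 2. Acacb, Acsl3, Mlxipl and Lpin2 were also not called with no replicate block. Without any 1 preparation the Aacs interaction was not called (values between 0.49 and 0.56).

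Aacs had log2 intensities of 8.54 and 8.51 in dKO preparations with 991, against 8.42 and 8.46 with vehicle, and 9.19 and 9.26 in WT preparations with 991, against 8.60 and 8.64 with vehicle. Both WT preparations were higher with 991, by 0.59 and 0.62, and the fitted difference was 0.61 ± 0.061 (adjusted p = 0.000285). The interaction was 0.52 ± 0.086 (adjusted p = 0.0301). Dgat2 had 11.70 and 11.64 in dKO preparations with 991, against 11.53 and 11.54 with vehicle, and 12.02 and 12.22 in WT preparations with 991, against 11.59 and 11.56 with vehicle. The Dgat2 difference in WT was 0.54 ± 0.059 (adjusted p = 0.000401).

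Acacb had 7.66 and 7.65 in dKO preparations with 991, against 7.52 and 7.70 with vehicle, and 8.13 and 8.08 in WT preparations with 991, against 7.59 and 7.59 with vehicle. It rose in WT by 0.52 ± 0.095 (adjusted p = 0.00851), and its interaction of 0.47 ± 0.13 was not called (adjusted p = 0.255). Lpin2 had 12.08 and 12.30 in WT preparations with 991, against 11.69 and 11.77 with vehicle, a rise of 0.46 ± 0.064 (adjusted p = 0.00186). Acsl3 had 9.11 and 8.95 with 991, against 8.83 and 8.53 with vehicle, a rise of 0.35 ± 0.065 (adjusted p = 0.00926). The WT preparations with 991 did not overlap those with vehicle for either gene.

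Mlxipl had 11.02 and 10.97 in dKO preparations with 991, against 10.95 and 10.94 with vehicle, and 11.22 and 11.28 in WT preparations with 991, against 11.04 and 10.98 with vehicle. It rose in WT hepatocytes by 0.24 ± 0.061 (adjusted p = 0.0417), and its interaction was 0.19 ± 0.087 (adjusted p = 0.646). Lpin1 had 8.27 and 8.13 in dKO preparations with 991, against 8.39 and 8.20 with vehicle, and 8.85 and 8.95 in WT preparations with 991, against 8.42 and 8.23 with vehicle. Its WT difference of 0.57 ± 0.18 was near the 0.61 of Aacs but did not pass the test (adjusted p = 0.089). Acss2, which rose with 991 in WT MEFs, had a 991 difference of -0.16 ± 0.13 in WT hepatocytes (adjusted p = 0.508), with 9.38 and 9.09 with 991, against 9.36 and 9.42 with vehicle. Fasn (0.06 ± 0.067, adjusted p = 0.619), Acaca (0.20 ± 0.060, adjusted p = 0.0786) and Srebf1 (0.10 ± 0.055, adjusted p = 0.33) were not called in WT hepatocytes with 991.

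**Figure D4:**
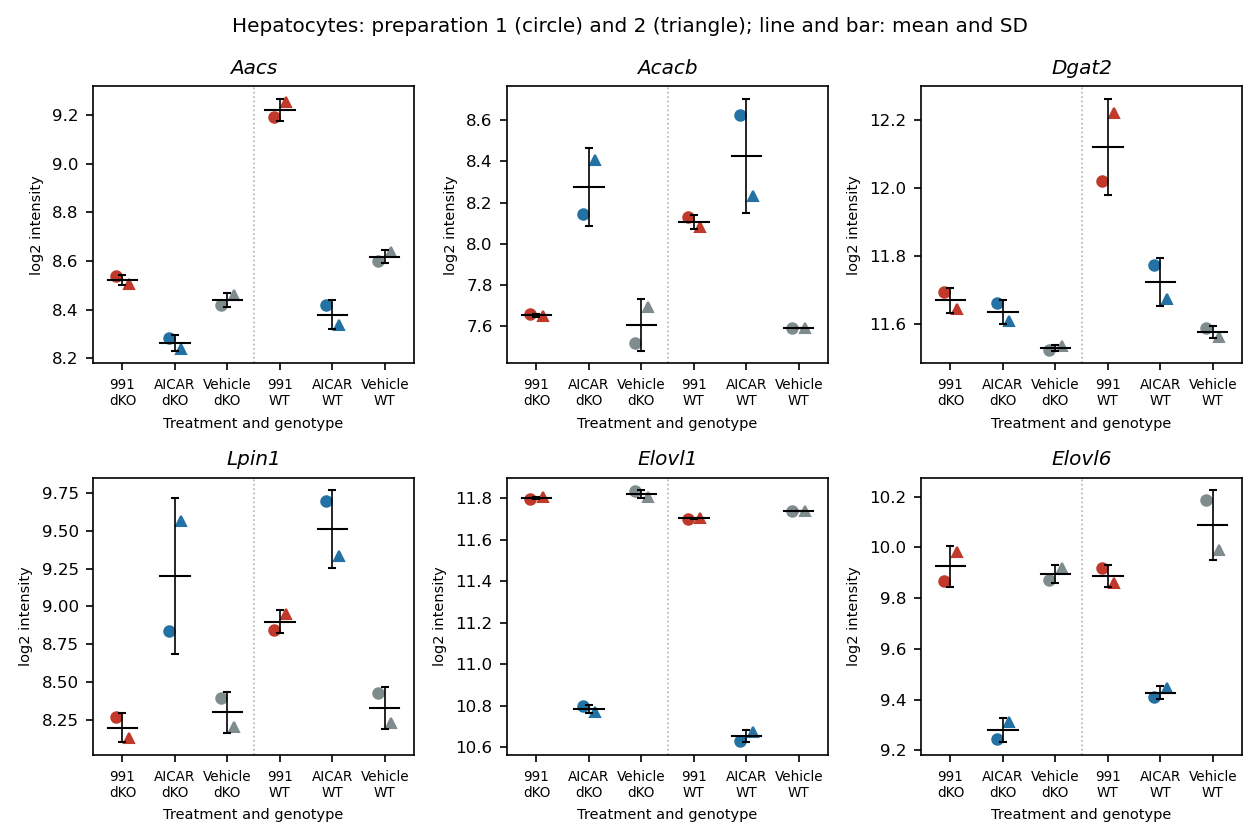
Log2 intensity (y axis) of 6 genes in hepatocytes, as the mean of each of 2 preparations (circle and triangle), by treatment and genotype (x axis), with the mean and SD. Elovl1 with AICAR lies between 10.63 and 10.80 in both genotypes, below all other preparations, and Aacs with 991 in WT lies at 9.19 and 9.26.

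AICAR moved genes in both directions in hepatocytes of both genotypes, with the elongases Elovl1 and Elovl6 lower and Acacb and Lpin1 higher. In dKO hepatocytes 6 of the 32 genes rose and 5 fell, beside 17.8% of all genes called (10.5% higher, 7.31% lower), and in WT hepatocytes 8 rose and 8 fell, beside 16.5% of all genes called (8.51% higher, 7.99% lower). The interaction was called for 0 of the 32 genes, beside 0.308% of all genes (0.154% in each direction), and 4 of the 32 and 1592 of all genes had an unadjusted p under 0.05. Kupffer cell markers summed to 11.91 to 12.21 in dKO hepatocytes with AICAR, against 11.56 to 11.90 with vehicle, with 7 of 10 called higher, and to 12.52 to 12.81 in WT hepatocytes with AICAR, against 12.27 to 12.77 with vehicle, with 1 of 10 called. Of 9 hepatocyte markers 5 were higher with AICAR in each genotype, and the part of these lists in the results was not tested. In mixed cells, a change in the number of cells of a type and a change in RNA per cell cannot be told apart.

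The elongases carried the largest falls. Elovl1 had 10.80 and 10.77 in dKO preparations with AICAR, against 11.84 and 11.81 with vehicle, and 10.63 and 10.68 in WT preparations with AICAR, against 11.74 and 11.74 with vehicle. All AICAR preparations lay below every vehicle preparation. The difference was -1.04 ± 0.038 in dKO (adjusted p = 2.73e-08) and -1.08 ± 0.038 in WT (adjusted p = 5.18e-08). All 4 probe sets of Elovl1 fell in hepatocytes of both genotypes, by log2 differences between -1.05 and -0.79 in dKO and between -1.15 and -1.07 in WT. With 991 the Elovl1 difference in WT hepatocytes was -0.04 (adjusted p = 0.619), and with AICAR in MEFs it was above 0, as given above. Elovl6 had 9.25 and 9.31 in dKO preparations with AICAR, against 9.87 and 9.92 with vehicle, and 9.41 and 9.45 in WT preparations with AICAR, against 10.19 and 9.99 with vehicle. It fell in every preparation, with differences of -0.61 ± 0.061 in dKO (adjusted p = 6.62e-05) and -0.66 ± 0.061 in WT (adjusted p = 7.59e-05).

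Elovl5 and Scd1 rose in both genotypes and Elovl3 in WT, while Scd2, Fads1 and Fads2 were not called in either. Elovl3 had 7.86 and 6.59 in WT preparations with AICAR, against 6.87 and 6.41 with vehicle, and its rise of 0.58 ± 0.15 (adjusted p = 0.0201) was carried by preparation 1, without which the value was 0.17 (adjusted p = 0.284). Elovl5 rose by 0.24 ± 0.068 in dKO (adjusted p = 0.0314) and by 0.27 ± 0.068 in WT (adjusted p = 0.0186). Without WT preparation 1 the Elovl5 value in WT was 0.09 (adjusted p = 0.323), and without a dKO preparation the dKO call was lost (adjusted p = 0.164 and 0.227). Scd1, already among the brightest genes, rose by 0.15 ± 0.026 in dKO (adjusted p = 0.00277) and by 0.09 ± 0.026 in WT (adjusted p = 0.0339). The WT call of Scd1 was lost with no replicate block (0.09, adjusted p = 0.12). It was also lost without any 1 preparation, with a value of 0.07 without WT preparation 1. The dKO call was lost without dKO preparation 1 (0.13).

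Acacb rose with AICAR in hepatocytes, and Acaca fell by its brighter probe set. Acacb had 8.14 and 8.41 in dKO preparations with AICAR, against 7.52 and 7.70 with vehicle, and 8.62 and 8.23 in WT preparations with AICAR, against 7.59 and 7.59 with vehicle. The Acacb differences were 0.67 ± 0.095 in dKO (adjusted p = 0.000756) and 0.84 ± 0.095 in WT (adjusted p = 0.000269), and the interaction was 0.17 ± 0.13 (adjusted p = 0.779). Acaca had 8.34 and 8.44 in dKO preparations with AICAR, against 8.75 and 8.72 with vehicle, and 8.45 and 8.45 in WT preparations with AICAR, against 8.71 and 8.61 with vehicle. It fell by 0.34 ± 0.060 in dKO (-0.34, adjusted p = 0.00267) and by 0.20 ± 0.060 in WT (-0.20, adjusted p = 0.0394). The other Acaca probe set, dim in hepatocytes (mean log2 intensity 5.06, against 8.66), rose in WT hepatocytes (0.52 ± 0.070, adjusted p = 0.000416). With both averaged the WT value turned to 0.16 (adjusted p = 0.0449). The WT fall of Acaca was also not called with no replicate block (-0.205, adjusted p = 0.12) or without any 1 preparation. Its dKO fall was not called with both probe sets averaged (-0.13, adjusted p = 0.0852) or without dKO preparation 1 (-0.283). Fasn was not called, with a difference of 0.01 ± 0.067 in dKO (adjusted p = 0.936) and -0.05 ± 0.067 in WT (adjusted p = 0.624).

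Lpin1 rose with AICAR in both genotypes, Lpin2 by most of its probe sets, and Lpin3 was not called. Lpin1 had 8.84 and 9.57 in dKO preparations with AICAR, against 8.39 and 8.20 with vehicle, and 9.70 and 9.33 in WT preparations with AICAR, against 8.42 and 8.23 with vehicle. Its differences were 0.90 ± 0.18 in dKO (adjusted p = 0.00511) and 1.19 ± 0.18 in WT (adjusted p = 0.00129), with preparation differences of 0.44 and 1.37 in dKO and 1.27 and 1.10 in WT. The call was lost without dKO preparation 2 in dKO (0.44, adjusted p = 0.0609) and without WT preparation 1 in WT (1.10, adjusted p = 0.0595). Lpin2 had 12.03 and 12.06 in dKO preparations with AICAR, against 11.67 and 11.60 with vehicle, and 12.21 and 12.16 in WT preparations with AICAR, against 11.69 and 11.77 with vehicle. That probe set rose by 0.41 ± 0.064 in dKO (adjusted p = 0.00139) and by 0.46 ± 0.064 in WT (adjusted p = 0.000921), and 2 others rose as well. Its last probe set went the other way by -2.72 ± 0.16 in dKO (adjusted p = 3.6e-07) and -1.29 ± 0.16 in WT (adjusted p = 0.000226). With all 4 averaged, Lpin2 was -0.41 in dKO (adjusted p = 0.0185) and 0.03 in WT (adjusted p = 0.844).

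**Figure D5:**
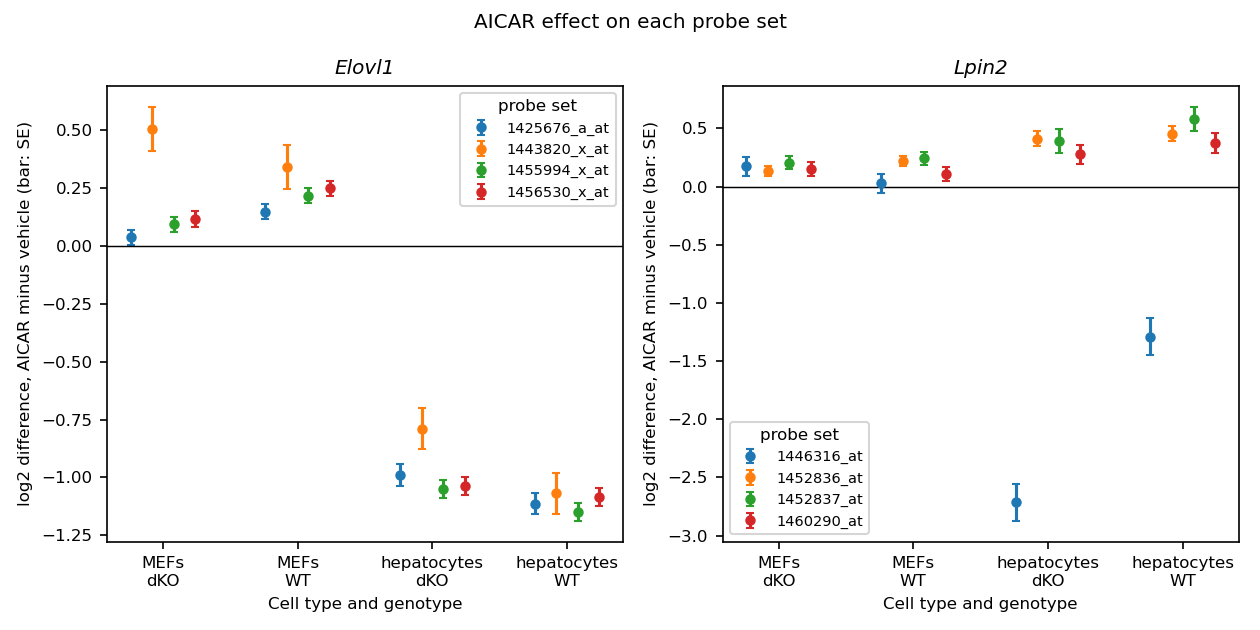
Log2 difference, AICAR minus vehicle (y axis, bars are SE), for each of the 4 probe sets of Elovl1 and of Lpin2, by cell type and genotype (x axis). The Elovl1 probe sets lie together below 0 in hepatocytes, whereas 1 Lpin2 probe set lies at -2.72 in dKO and -1.29 in WT hepatocytes, apart from the other 3.

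The regulators and the acyl-CoA synthetases changed modestly with AICAR in hepatocytes. Thrsp had 9.51 and 9.58 in dKO preparations with AICAR, against 9.0 and 9.16 with vehicle, and 9.58 and 9.43 in WT preparations with AICAR, against 9.12 and 9.21 with vehicle. Thrsp rose by 0.47 ± 0.069 in dKO (adjusted p = 0.000929) and by 0.34 ± 0.069 in WT (adjusted p = 0.00645). The WT call of Thrsp was lost with no replicate block (adjusted p = 0.0612) and without WT preparation 1 (0.22). Srebf1 rose in WT by 0.18 ± 0.055 (adjusted p = 0.0494), with 9.97 and 9.95 with AICAR, against 9.73 and 9.84 with vehicle, and in dKO its difference was 0.10 ± 0.055 (adjusted p = 0.234). The WT call of Srebf1 was lost without any 1 preparation, with 0.11 (adjusted p = 0.331) without WT preparation 1. Mlxipl was not called in either genotype. In WT hepatocytes Acsl3 fell (-0.38 ± 0.065, adjusted p = 0.00297), as did Acsl4 (-0.34 ± 0.099, adjusted p = 0.0397), Aacs (-0.24 ± 0.061, adjusted p = 0.0218) and Mlx (-0.23 ± 0.060, adjusted p = 0.0216). The Acsl4 fall rests on preparation 2, since without it the value was -0.06. Aacs and Mlx lost their calls when either WT preparation was left out, and Acsl3 without WT preparation 1 (-0.32). None of these falls was called with no replicate block. When probe sets were averaged, Aacs (-0.12, adjusted p = 0.133) and Acsl4 (-0.16, adjusted p = 0.113) were not called. Me1 fell by 0.14 in dKO (adjusted p = 0.0315) and by 0.18 in WT (adjusted p = 0.0107), and Slc25a1 fell by 0.17 in dKO (adjusted p = 0.018). These calls of Me1 and Slc25a1 were lost with no replicate block and when either preparation of the genotype was left out.

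In the wider list of 37 genes, 991 changed 0 in dKO hepatocytes and raised 5 and lowered 1 in WT hepatocytes, beside 0.0055% of all genes called in dKO and 6.07% in WT. Insig1 rose most there, by 0.77 (adjusted p = 4.23e-05), and its interaction of 0.87 was called (adjusted p = 0.00147). Ppargc1b rose by 0.47 (adjusted p = 0.0222) and Gpat3, a glycerol phosphate acyltransferase, by 0.46 (adjusted p = 0.0211). With AICAR 5 rose and 8 fell in dKO hepatocytes and 3 rose and 9 fell in WT hepatocytes, beside 17.8% of all genes called in dKO and 16.5% in WT. Insig2, the insulin-suppressed liver relative of Insig1, rose by 0.58 in dKO (adjusted p = 0.000119) and by 0.62 in WT (adjusted p = 0.000132), and Fads3 fell by 0.61 in dKO (adjusted p = 0.00166) and by 0.43 in WT (adjusted p = 0.0132).

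The vehicle-treated hepatocytes gave 0 calls among the 32 genes for dKO against WT, beside 0% of all genes, with 4 preparation means in the test. Of the 32 genes 4 had an unadjusted p under 0.05, and so had 846 of all genes. Acss2 had 8.98 and 9.13 in dKO preparations, against 9.36 and 9.42 in WT preparations, a difference of -0.33 ± 0.090 that did not pass the test (adjusted p = 0.993). The differences of Acaca (0.08), Acacb (0.02), Fasn (-0.01), Srebf1 (0.02) and Mlxipl (-0.07) were smaller still, with intervals that included 0. For Acaca the 95% interval ran from -0.13 to 0.29 and for Fasn from -0.22 to 0.19.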

How the data were processed

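RNA of 23 MEF arrays and 59 hepatocyte arrays was measured. Per the submitters' processing notes the authors used RMA and Partek, with no version or setting given. By their range the deposited values are log2 intensities, 1 for each probe set. The series' design text says that 1 outlying array of each cell type was dropped. Array medians were 6.158 to 6.246 in MEFs and 5.877 to 6.078 in hepatocytes, and the number of arrays limits the precision. Of 45101 probe sets, 64 controls were left out, and of the other 45037, 34945 had 1 symbol, 932 several and 9160 none in GEO's platform annotation. Symbols were updated by Entrez identifier (34741 matched), and each gene was represented by its brightest probe set, by mean, within the cell type.

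Linear models with a trended prior (limma 3.58.1 under R 4.3.3) were fitted to all 18193 genes within a cell type. MEFs had 6 group means over arrays. Hepatocytes had 12 preparation means with preparation within genotype as a block, since samples of a preparation moved together (r = 0.502 to 0.845), and dKO against WT used the 4 vehicle means. Technical replicate numbers did not pair MEF arrays (median r = 0.016). The fits were tested on simulated data. Alternatives were quantile normalization, a filter keeping genes whose mean reached the median gene, averaging a gene's probe sets, other blocks, every array as a sample and leaving out arrays or preparations.

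The genes and lists were chosen with earlier results of these data known. Values in every sample are given for up to 6 called genes with the largest change per comparison, and for Acaca, Acacb, Fasn, Srebf1, Mlxipl and Acss2 in genotype comparisons. Promoters were searched in RefSeq windows (GRCm38.p6), and Scd1, Scd2, Elovl3, Fads1, Dgat1 and Dgat2 had no entry.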

Additional observations from a re-analysis of the deposited data

Results flagged for a closer look

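On 5 occasions among 160 combinations of gene and MEF group, 1 array stood apart from the others of its group by Dixon's test, where chance gives about 1 in 20. These were Elovl1 on array 1 of WT MEFs with vehicle (11.12), Acsl3 on array 4 of dKO MEFs with AICAR (10.25), Lpin1 on array 4 of WT MEFs with AICAR (7.43), Lpin3 on array 1 of dKO MEFs with 991 (4.62) and Mlx on array 1 of WT MEFs with AICAR (8.88). Groups of 3 arrays and the hepatocyte groups of 2 preparations were not tested in this way.

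The effect of 991 differed between genotypes in MEFs for 8 genes, by the interaction term of limma (effect in WT minus effect in dKO). The values were 0.61 for Acss2, 0.36 for Aacs, 0.29 for Fasn, 0.27 for Elovl6, 0.19 for Scd1, 0.17 for Fads1, 0.58 for Lpin1 and 0.26 for Lpin2. The effect of AICAR differed in MEFs for 7 genes, with 0.22 for Fasn, 0.13 for Elovl6, 0.16 for Scd1, -0.22 for Acsl3, 0.24 for Acsl5, 0.43 for Lpin1 and 0.21 for Dgat2. Of 27 alternatives, the AICAR call was lost in 15 for Scd1, 10 each for Elovl6 and Dgat2, and 3 for Acsl3. The 991 call was lost in 14 for Fads1, 10 for Scd1, 3 for Lpin2, and 1 each for Acss2 and Aacs. In hepatocytes the effect of 991 differed for Aacs (0.52). No explanation of these differences was tested.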

How the results depend on the processing

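Counts of the 32 genes called moved by over 1.5 times under the following settings. Quantile normalization gave 9 for 991 in WT MEFs, 3 in dKO MEFs and 5 for the 991 interaction. Over all 18193 genes it gave 2251, 908 and 757. The filter keeping genes that reached the median gene gave 4 for 991 in dKO MEFs, beside 859 of 9097 genes. The replicate block by technical replicate number gave 2 for 991 in dKO MEFs, beside 667 of all genes. It moved no other MEF count by over 1.5 times. The mean of all probe sets gave 4 for the 991 interaction in MEFs, beside 777 of all genes, and 0 in hepatocytes, beside 39. It turned the sign of Acaca (0.16, AICAR in WT hepatocytes) and of Lpin2 (-0.41, AICAR in dKO hepatocytes). In hepatocytes with no replicate block the counts were 2 for 991 in WT, 0 for the 991 interaction and 5 for AICAR in WT. Over all genes they were 166, 3 and 724. Every array was also taken as a sample, which treats technical replicates as independent. The hepatocyte counts were then 5 for 991 in dKO, 20 for 991 in WT and 11 for its interaction. For AICAR they were 24 in dKO, 26 in WT and 6 for its interaction, and 11 for dKO against WT. In the same order, the counts over all 18193 genes were 783, 5765, 2111, 7131, 7686, 2317 and 2288.

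Leaving out 1 MEF array gave 1 to 3 for 991 in dKO, 12 to 20 for 991 in WT, 5 to 10 for its interaction (5 without WT 991 array 3), 17 to 21 for AICAR in dKO, 13 to 14 for AICAR in WT, 3 to 7 for its interaction (3 without WT vehicle array 4) and 18 to 21 for dKO against WT. Leaving out 1 preparation gave 0 to 0 for 991 in dKO hepatocytes, 2 to 8 for 991 in WT, 0 to 1 for its interaction, 6 to 12 for AICAR in dKO, 6 to 13 for AICAR in WT, 0 to 0 for its interaction and 0 to 0 for dKO against WT. Calls kept under every alternative run for their cell type included the 991 interactions of Fasn, Elovl6 and Lpin1 and the AICAR interactions of Fasn, Acsl5 and Lpin1 in MEFs, the rises of Aacs and Dgat2 with 991 in WT hepatocytes, and the changes of Acacb, Elovl1 and Elovl6 with AICAR in hepatocytes of both genotypes. Apart from the alternatives' own construction, the causes of these shifts were not tested.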

Other observations

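Among the hepatocyte probe sets with an AICAR interaction, the Lpin2 probe set that ran against the others differed between genotypes by 1.43 ± 0.22 (SE, WT minus dKO, adjusted p = 0.0051), and the second Acaca probe set by 0.44 ± 0.10 (adjusted p = 0.0441). Neither gene was called in the interaction by the probe set with the highest mean, with 0.05 for Lpin2 and 0.14 for Acaca.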
